A study of Mus musculus with 24 samples.

Results

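The collagen and laminin genes are the structural genes of the extracellular matrix, and they were followed here for 2 histone marks in 4 sorted populations of mouse mammary basal cells. Members were all genes whose mouse symbol is a collagen chain (Col, a type number, a and a chain number) or a laminin chain (Lama, Lamb or Lamc with a number), after Entrez identifiers were matched to symbols. This gave 55 of the 27080 genes in the counts. They were split by the kind of matrix they build into 11 fibrillar collagens, 19 basement membrane genes (6 chains of type IV collagen, 11 laminin chains and the multiplexins Col15a1 and Col18a1) and 25 other collagens. The split used no measured value.

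The cells came directly from mammary glands of untreated C57BL/6 females and were sorted by the receptor Lgr5 and the tetraspanin Tspan8 into Lgr5+Tspan8hi, Lgr5+Tspan8-, Lgr5-Tspan8hi and Lgr5-Tspan8- basal cells. The sources used here give neither the age of the animals nor how many stand behind a library. Each population had 2 libraries for H3K4me3 (trimethylated lysine 4 of histone H3) and 2 for H3K27me3 (trimethylated lysine 27), 16 libraries in all. The labels do not say whether the 2 libraries of a population came from separate animals, so p-values measure the spread between these libraries, which may be technical. The chromatin is from sorted bulk cells, so a different mark in every cell and a different mix of cells cannot be told apart.

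A collagen molecule is a triple helix of alpha chains. Types I, II, III, V and XI and the related XXIV and XXVII form fibrils. The chains of types I and III are made in quantity by stromal fibroblasts. Type IV collagen forms the sheet-like network of basement membranes together with laminins, which are trimers of an alpha, a beta and a gamma chain. In the mammary gland the basal cells sit directly on the basement membrane and hold to it through hemidesmosomes. H3K4me3 is placed around the starts of genes that are active or open to activation, and H3K27me3 is placed by Polycomb repressive complex 2 over genes that are kept silent.

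Read counts were scaled by the size of each library and are given in CPM, the usual depth-scaled unit. Genes that share a promoter had nearly equal H3K4me3 counts, which are thus taken as reads gathered near the start. H3K27me3 counts grew with gene length, with a Spearman's rho of 0.821 over the 55 members and 0.797 over 25185 genes with a known length. H3K27me3 is therefore given as CPM per kb of gene wherever levels of different genes are set side by side. The 55 genes used 52 promoters. Col4a1 and Col4a2 start 84 bp apart on opposite strands, Col4a3 and Col4a4 113 bp apart, and Col4a5 and Col4a6 1275 bp apart. Over the 8 libraries the ratio of H3K4me3 counts in these pairs stayed between 0.978 and 1.04, between 0.978 and 1.05, and between 0.923 and 1.06, so each pair is 1 H3K4me3 measurement counted under 2 names. The same ratios for H3K27me3 counts ran from 0.701 to 1.28 for Col4a1 over Col4a2, from 1.16 to 1.45 for Col4a3 over Col4a4 and from 0.556 to 0.637 for Col4a5 over Col4a6. Col10a1 lies within Nt5dc1, Col9a3 overlaps Tcfl5, and the microRNA genes Mir711 and Mir455 lie within Col7a1 and Col27a1, so reads at these places cannot be assigned to 1 gene.

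The promoters of 6 members are shown because they span what the marks showed: the highest H3K4me3 level of all members and the lowest of the fibrillar class (Col4a1 and Col3a1), a laminin of the active group (Lamb1), a gene with both marks (Col27a1), and the members on which the comparisons between populations turn (Col6a1, Col6a4, and Col27a1 again). Each is the 300 bp window from 250 bp before to 50 bp after a RefSeq transcript start in GRCm38.p6, the assembly that mm10 denotes, read 5′ to 3′ on the gene's own strand, with every CG dinucleotide in capitals. The windows are chr8:11312777-11313076 on the minus strand for Col4a1, chr12:31265043-31265342 on the plus strand for Lamb1, chr10:76725995-76726294 on the minus strand for Col6a1, chr4:63215162-63215461 on the plus strand for Col27a1, chr1:45311288-45311587 on the plus strand for Col3a1 and chr9:106096642-106096941 on the minus strand for Col6a4.
Col4a1: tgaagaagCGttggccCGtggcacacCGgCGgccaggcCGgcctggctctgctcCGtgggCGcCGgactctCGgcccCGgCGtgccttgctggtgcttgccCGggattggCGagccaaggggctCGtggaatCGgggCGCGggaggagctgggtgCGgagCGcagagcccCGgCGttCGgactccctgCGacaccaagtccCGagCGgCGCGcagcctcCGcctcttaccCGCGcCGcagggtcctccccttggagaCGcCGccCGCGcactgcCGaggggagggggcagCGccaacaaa
Lamb1: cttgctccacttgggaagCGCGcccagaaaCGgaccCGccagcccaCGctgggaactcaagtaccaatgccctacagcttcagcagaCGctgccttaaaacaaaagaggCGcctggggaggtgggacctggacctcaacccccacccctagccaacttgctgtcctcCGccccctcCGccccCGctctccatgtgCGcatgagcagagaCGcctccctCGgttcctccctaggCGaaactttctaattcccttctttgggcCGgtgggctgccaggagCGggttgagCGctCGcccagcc
Col27a1: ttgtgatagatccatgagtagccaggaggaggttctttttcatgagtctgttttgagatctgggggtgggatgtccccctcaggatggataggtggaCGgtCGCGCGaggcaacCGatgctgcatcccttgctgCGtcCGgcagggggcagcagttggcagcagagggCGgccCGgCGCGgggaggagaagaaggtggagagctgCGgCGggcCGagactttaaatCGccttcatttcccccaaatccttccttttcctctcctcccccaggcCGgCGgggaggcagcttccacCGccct
Col6a1: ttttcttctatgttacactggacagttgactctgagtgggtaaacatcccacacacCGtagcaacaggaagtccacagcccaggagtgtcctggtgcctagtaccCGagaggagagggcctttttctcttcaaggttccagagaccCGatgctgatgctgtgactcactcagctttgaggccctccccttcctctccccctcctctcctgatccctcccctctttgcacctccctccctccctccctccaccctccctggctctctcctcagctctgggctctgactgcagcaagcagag
Col6a4: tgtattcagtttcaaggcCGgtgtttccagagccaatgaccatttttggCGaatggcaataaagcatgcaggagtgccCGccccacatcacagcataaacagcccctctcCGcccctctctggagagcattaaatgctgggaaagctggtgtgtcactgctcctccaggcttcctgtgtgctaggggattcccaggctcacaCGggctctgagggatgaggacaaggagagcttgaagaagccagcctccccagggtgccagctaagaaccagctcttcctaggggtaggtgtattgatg
Col3a1: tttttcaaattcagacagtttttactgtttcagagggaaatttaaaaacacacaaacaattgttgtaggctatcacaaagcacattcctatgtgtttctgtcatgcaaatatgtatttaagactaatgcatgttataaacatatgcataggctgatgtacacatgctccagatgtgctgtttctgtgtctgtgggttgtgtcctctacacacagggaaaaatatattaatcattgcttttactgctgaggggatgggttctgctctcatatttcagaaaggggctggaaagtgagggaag
The Col4a1 window held 37 CG dinucleotides, the Lamb1 and Col27a1 windows 18 each, the Col6a4 window 5, the Col6a1 window 3 and the Col3a1 window none.

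Over all 4 populations the basement membrane genes had, by class median, the most H3K4me3 and the least H3K27me3. Their median H3K4me3 level was 67.6 CPM, against 30.8 CPM for the fibrillar and 28.3 CPM for the other collagens and 22.5 CPM for all genes. Their median H3K27me3 density was 0.428 CPM per kb, against 1.03 for the fibrillar collagens, 0.975 for the other collagens and 0.601 for all genes. Within the class the 11 laminin chains had a median of 0.378 and the 6 type IV chains 1.11 CPM per kb. Of the 19 basement membrane genes, 13 had H3K4me3 above and H3K27me3 density at or below the medians of all genes, as did 3 of 11 fibrillar and 8 of 25 other collagens and 39.9% of all genes. For scale, 1108 olfactory receptor genes, taken as a silent set, had a median H3K4me3 level of 1.3 CPM and a 95th percentile of 2.34 CPM, which 51 of the 55 members and 18114 of 25185 genes exceeded. At the active end, 72 ribosomal protein genes had medians of 92.1 CPM of H3K4me3 and 0.235 CPM per kb of H3K27me3. The 95th percentile of their H3K27me3 density was 1.91 CPM per kb. Below it lay 46 of the 55 members and 20443 of 25185 genes. Across the 55 genes the 2 marks ran against each other, with a Spearman's rho of -0.501, close to the -0.499 across 25185 genes. Genes are not independent replicates, and no test was made of these orders. Basement membrane genes had the highest H3K4me3 median in each population too, at 58.8 to 77.2 CPM, while no population median of the fibrillar or other collagens exceeded 36.4 CPM.

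**Figure D1:**
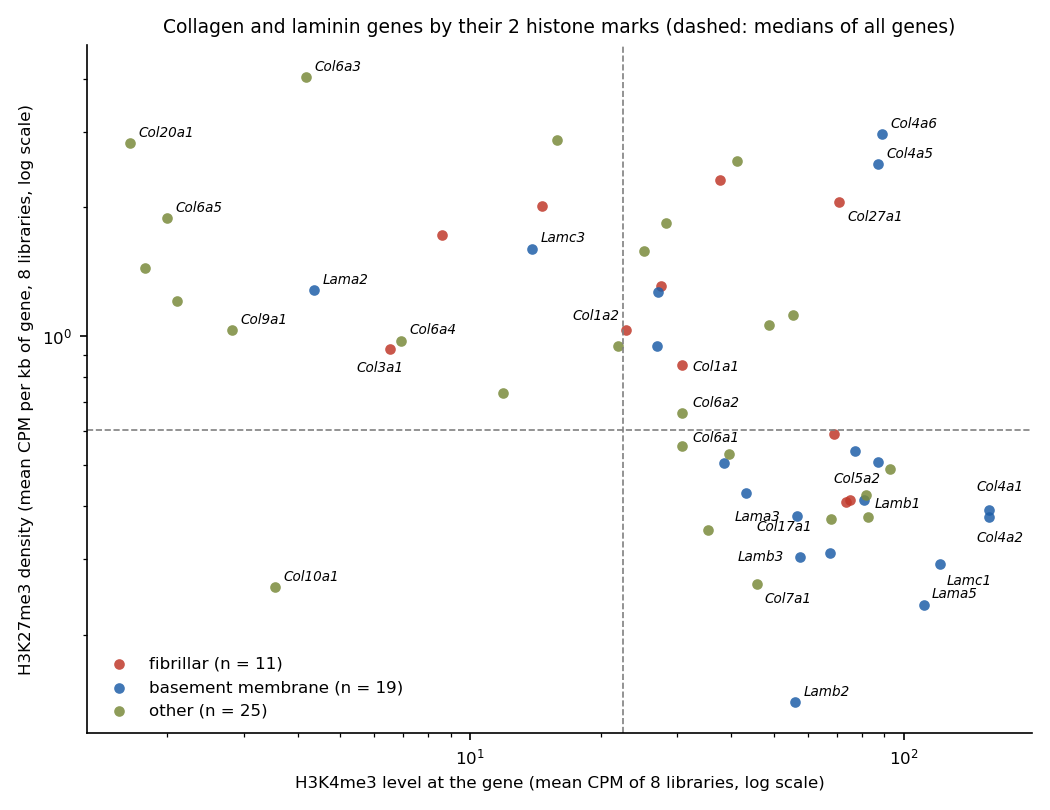
Each point is 1 of 55 collagen and laminin genes, with its mean H3K4me3 level in CPM (x axis, log scale) and its mean H3K27me3 density in CPM per kb of gene (y axis, log scale) over 8 libraries of each mark; dashed lines are the medians of all genes, 22.5 CPM and 0.601 CPM per kb. Most basement membrane genes (13 of 19) lie at the lower right, Col4a5, Col4a6 and Col27a1 at the upper right, and Lama2 and Lamc3 at the upper left.

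The levels of the type IV chains differed from pair to pair. Col4a1 and Col4a2, the chains of the ubiquitous type IV network, had the highest H3K4me3 of all members, 157 ± 23.4 CPM for Col4a1 (SD, n = 8 libraries), at the 99.0th percentile of all genes. Their H3K27me3 density was 0.392 and 0.377 CPM per kb. Col4a3 and Col4a4, which with Col4a5 make the network of the kidney glomerulus, stood at 27.1 ± 7.24 CPM of H3K4me3 for Col4a3 and at H3K27me3 densities of 1.27 and 0.948 CPM per kb, above the all-gene median for both marks. Col4a5 and Col4a6 lie on the X chromosome and carried both marks at high level, 87.2 and 88.8 CPM of H3K4me3 and 2.52 and 2.96 CPM per kb of H3K27me3. Female cells silence 1 X chromosome, and H3K27me3 is a known mark of the silenced copy. All 1164 X-linked genes had a median H3K27me3 density of 2.6 CPM per kb, against 0.562 for 23912 autosomal genes.

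The laminin chains covered a wide range of both marks. Lama3 and Lamb3, an alpha and a beta chain that help to anchor basal epithelial cells, had 56.6 ± 9.67 and 57.7 ± 6.19 CPM of H3K4me3 with H3K27me3 densities of 0.378 and 0.304 CPM per kb. Lama5 and Lamc1, chains of the widespread laminin-511, were higher still in H3K4me3, at 111 ± 15.2 and 121 ± 19.1 CPM. Lamb1, the beta chain of laminin-111 and laminin-511, had 80.9 ± 7.88 CPM. Lamb2 had 56.0 CPM of H3K4me3 and the lowest H3K27me3 density of all members, 0.139 CPM per kb, but rests on only 1.48 CPM over a gene of 10.7 kb. At the other end stood Lama2, the alpha chain of muscle and nerve basement membranes, with 4.37 CPM of H3K4me3 and 1.28 CPM per kb of H3K27me3, and Lamc3 with 13.9 CPM and 1.6 CPM per kb. These 2 were the only basement membrane genes with H3K4me3 below and H3K27me3 density above the all-gene medians.

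The fibrillar collagens were spread over all levels. The major stromal chains were low to intermediate in H3K4me3 here: Col1a1 had 30.8 ± 5.85 CPM, Col1a2 22.9 ± 4.51 CPM and Col3a1 6.52 ± 5.69 CPM (SD, n = 8), and their H3K27me3 densities of 0.856, 1.03 and 0.932 CPM per kb all exceeded the median of all genes. Col5a2, Col11a1 and Col5a1, chains of the minor fibrillar types V and XI that set fibril diameter, were higher in H3K4me3, at 75.2, 73.5 and 68.9 CPM, with 0.414, 0.408 and 0.589 CPM per kb of H3K27me3. The start of Col5a2 lies 191744 bp from that of Col3a1, on the opposite strand, and the 2 neighbours stood at 75.2 and 6.52 CPM of H3K4me3. Col2a1, the cartilage collagen, and Col27a1 had the highest H3K27me3 densities of the class, 2.32 and 2.06 CPM per kb, together with 37.6 and 70.9 CPM of H3K4me3. Of the fibroblast markers, all 12 were measured, and their H3K4me3 levels ran from 2.32 to 73.9 CPM with a median of 32.8 CPM.

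Among the other collagens the hemidesmosome and anchoring chains sat with the laminins. Col17a1, the transmembrane collagen of hemidesmosomes, had 67.9 ± 11.4 CPM of H3K4me3 and 0.373 CPM per kb of H3K27me3, and Col7a1, the anchoring fibril collagen, had 45.7 ± 7.7 CPM and 0.262 CPM per kb. The fibril-associated collagens Col12a1 and Col14a1 had the highest H3K4me3 of the class, 92.6 and 82.7 CPM. The chains of type VI collagen, which form beaded filaments, fell into pairs: Col6a1 and Col6a2 had 30.8 and 30.7 CPM of H3K4me3 with 0.553 and 0.66 CPM per kb of H3K27me3, whereas Col6a3 had 4.18 CPM and the highest H3K27me3 density of all 55 genes, 4.04 CPM per kb. The alternative chains Col6a4, Col6a5 and Col6a6, which form a cluster on chromosome 9, had 6.91, 2.0 and 11.9 CPM of H3K4me3. Col20a1 had the lowest H3K4me3 level, 1.64 CPM, and Col10a1, the collagen of hypertrophic cartilage, was the only member below the all-gene medians for both marks.

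Promoter windows were at hand for 40 members, 8 fibrillar, 12 basement membrane and 20 other. They held a median of 11.5 CG dinucleotides, against 13 in 18458 windows of all genes, and 57.5% of them held at least 10, against 56.6%. Spearman's rho between CG count and H3K4me3 level was 0.525 across the 40 members and 0.749 across all windows, as a description with no test. The class difference in H3K4me3 was seen on both sides of that count, though in few windows. At least 10 were held by 7 of 12 basement membrane, 5 of 8 fibrillar and 11 of 20 other windows. Among these the medians were 87.2 CPM for basement membrane, 27.5 CPM for fibrillar and 39.5 CPM for other members. Among windows with fewer they were 56.0, 14.6 and 4.18 CPM. Col4a1 and Col4a2, which are 1 H3K4me3 measurement, both count among the basement membrane windows with at least 10. Lamb3 with 2 CG dinucleotides, Col4a6 with 3, Lamb2 with 4 and Col17a1 with 5 all had over 50 CPM of H3K4me3, against a median of 2.02 CPM for all genes with fewer than 10. The window nearest the annotated gene start was used, with no limit on distance. That of Lamb3 begins at chr1:193301744, inside a gene that starts at 193294353, so its CG count may not describe the marked promoter. Some other windows also lie inside their genes, such as those of Col20a1 (from chr2:180986285, gene start 180983323) and Col27a1 (from chr4:63215162, gene start 63214009). Col4a6 shares its promoter region with Col4a5, whose window held 11. In the other direction Col5a3 had 20 CG dinucleotides and 8.61 CPM. The motif TATAAA, searched on both strands, was in 5 of the 40 windows (12.5%) and in 13.1% of all windows. The members with it were Col11a2, Col3a1, Col10a1, Col13a1 and Col17a1.

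**Figure D2:**
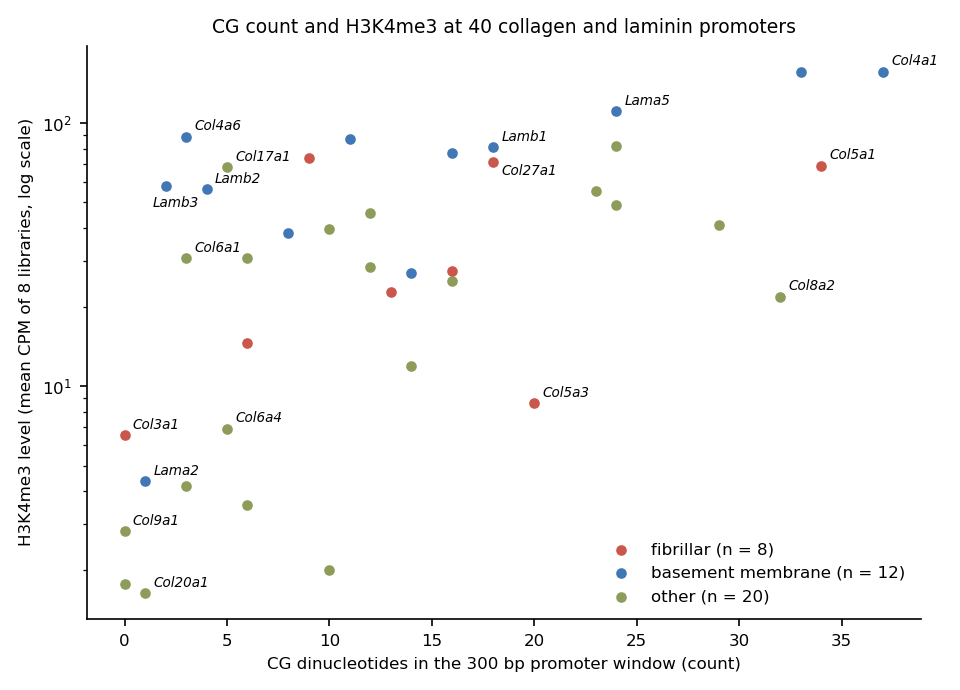
Each point is 1 of 40 promoters, with the number of CG dinucleotides in its 300 bp window (x axis) and the mean H3K4me3 level of the gene in CPM over 8 libraries (y axis, log scale). Low counts go with a wide range of levels, from 1.64 CPM for Col20a1 to 88.8 CPM for Col4a6. The windows of Col20a1 and Lamb3 lie inside their genes, away from the annotated start.

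The H3K4me3 libraries held 1472251 to 4740371 reads in genes and the H3K27me3 libraries 2639862 to 6972189. The number of genes with no read was larger than these totals give under simple sampling of the mean profile. Expressed as the share of the total that would give the number of empty genes seen, the effective depth was 17.2% to 47.4% in the 4 Tspan8hi libraries of H3K4me3, against 55.2% to 98.8% in the 4 Tspan8- libraries, and 31.0% to 63.5% against 70.7% to 77.5% for H3K27me3 (exact permutation test, two-sided, p = 0.0286 for each mark, the smallest that 4 against 4 allows). Depth thus moved with the Tspan8 comparison, and its part in the results below was not tested. Lgr5-Tspan8hi replicate 1 stood apart, with 5844 empty genes for H3K4me3 and 4191 for H3K27me3. H3K4me3 at Tspan8 itself was 68.7 to 89.7 CPM in Tspan8hi libraries and 21.0 to 30.7 CPM in Tspan8- libraries, as the labels say, whereas Lgr5 H3K4me3 overlapped, at 61.0 to 98.5 CPM in Lgr5+ and 51.4 to 79.9 CPM in Lgr5- libraries. The basal and myoepithelial markers had a median H3K4me3 level of 114 CPM over 15 genes. They ran from 1.76 CPM for Trp63, below the olfactory 95th percentile, and 5.76 CPM for Mylk to 168 CPM for Oxtr. The 10 immune markers had a median of 1.63 CPM, and 2 of them exceeded the olfactory 95th percentile. The 10 endothelial markers had a median of 7.43 CPM, the 6 pericyte markers 15.1 CPM and the 15 luminal markers 34.5 CPM. The luminal markers ran from 1.78 CPM for Elf5 to 107 CPM for Krt8 and 254 CPM for Gata3.

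Populations were compared over libraries in 4 ways for each mark: Tspan8hi minus Tspan8- and Lgr5+ minus Lgr5-, each 4 libraries against 4, the interaction (the Tspan8 difference in Lgr5+ cells minus that in Lgr5- cells), and any difference among the 4 populations. Where 4 values are given for Tspan8hi or Tspan8- libraries the 2 Lgr5+ ones come first, and where 4 are given for Lgr5+ or Lgr5- libraries the 2 Tspan8hi ones come first. Differences are on the log2 scale with their standard error (SE), and a gene counts as passing below an adjusted p of 0.05 in edgeR's quasi-likelihood test with Benjamini-Hochberg adjustment over all genes of the mark. Of the 55 members, 52 had enough reads to be tested for H3K4me3 (Col20a1, Col22a1 and Col28a1 had not) and all 55 for H3K27me3.

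H3K4me3 at collagen and laminin genes was not detectably different between the populations after adjustment. None of the 52 members tested passed in the Tspan8, Lgr5, interaction or any-difference comparison in edgeR, where 0.0473%, 0.0421%, 0% and 0.0894% of all 19009 genes passed, among them 0.00526% higher in Tspan8hi and 0.0105% higher in Lgr5+ cells. At an unadjusted p under 0.05 there were 10, 7, 5 and 11 members, against 5.9%, 4.98%, 4.2% and 5.27% of all genes. Of the 10 in the Tspan8 comparison, 4 were type IV chains, whose pairs count each H3K4me3 measurement under 2 names. DESeq2 and limma-voom also called none in any of these comparisons. At an unadjusted p under 0.05 there were 5 to 10 members in DESeq2 and 7 to 14 in limma-voom. Over all 19009 genes there were 761 to 1061 and 910 to 1445. Without Lgr5-Tspan8hi replicate 2, Col3a1 passed in the Tspan8 comparison, and Col3a1 and Col5a3 passed in the any-difference comparison, where 105 and 97 of 20772 genes did; in that fit the lone Lgr5-Tspan8hi library, which has no read at either gene, is assumed to vary like the other groups.

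The smallest p for H3K4me3 belonged to the type VI chain Col6a1. Col6a1 and Col6a2, whose starts lie 102414 bp apart on the same strand of chromosome 10, assemble with 1 more chain into a monomer. Col6a1 had 42.4, 40.01, 34.6 and 41.2 CPM in the Lgr5+ libraries, against 25.4, 26.1, 20.8 and 16.04 CPM in the Lgr5- libraries. All Lgr5+ libraries lay above all Lgr5- libraries. The Lgr5 difference was 0.87 ± 0.23 (SE), a 1.83-fold higher level, but it did not pass (adjusted p = 0.365 in edgeR). Col6a2 had 45.3, 34.7, 36.4 and 31.7 CPM in Lgr5+ libraries, against 31.2, 20.7, 27.1 and 18.1 CPM in Lgr5- libraries. These groups did not overlap either, and the difference was 0.64 ± 0.23 with an adjusted p of 0.926 in edgeR. For H3K27me3 the same 2 genes differed in the other direction, by -0.39 ± 0.26 for Col6a1 and -0.59 ± 0.19 for Col6a2, with adjusted p of 0.814 and 0.436 in edgeR. Col6a2 had 20.4, 12.7, 12.3 and 13.0 CPM of H3K27me3 in Lgr5+ libraries against 19.5, 17.4, 27.7 and 24.3 CPM in Lgr5- libraries, with overlap. Col6a3, the chain that completes the monomer, showed no such H3K4me3 pattern, with 2.54, 4.34, 3.97 and 5.4 CPM in Lgr5+ libraries against 0, 7.8, 4.62 and 4.79 CPM in Lgr5- libraries, values near background.

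Lama1, the alpha chain of the embryonic laminin-111, was the reverse case. Its H3K4me3 was 67.0, 63.6, 87.3 and 78.9 CPM in Lgr5+ libraries, against 102, 97.1, 94.1 and 106 CPM in Lgr5- libraries, with no overlap. The difference was -0.44 ± 0.13 (adjusted p = 0.691 in edgeR), so it did not pass. Col19a1, a fibril-associated collagen, had 12.3, 17.7, 18.8 and 28.3 CPM in Lgr5+ libraries against 17.7, 34.7, 29.4 and 42.5 CPM in Lgr5- libraries, and the groups overlapped.

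In the Tspan8 comparison the smallest H3K4me3 p-values were those of Col26a1, Col13a1 and Col6a5. Col26a1 had 8.48, 11.8, 7.25 and 15.98 CPM in Tspan8hi libraries, against 17.7, 22.3, 20.2 and 22.9 CPM in Tspan8- libraries, without overlap, a difference of -0.92 ± 0.32 (adjusted p = 0.612 in edgeR). Col13a1, a transmembrane collagen, had 24.6, 29.46, 44.8 and 37.8 CPM in Tspan8hi libraries against 36.8, 60.04, 42.1 and 53.5 CPM in Tspan8- libraries, with overlap. Col6a5 is near background, with 0, 0.93, 0 and 0.39 CPM in Tspan8hi libraries against 0.361, 4.72, 5.19 and 4.37 CPM in Tspan8- libraries, and its fitted fold change is not used. Col3a1 had 3.39, 3.1, 0 and 7.02 CPM in Tspan8hi libraries against 7.22, 4.72, 19.05 and 7.71 CPM in Tspan8- libraries. The summed H3K4me3 level of the 12 fibroblast markers was 328.3 to 415.5 CPM in Tspan8hi libraries and 417.6 to 496.4 CPM in Tspan8- libraries, and Dcn, the fibroblast proteoglycan decorin, passed in the Lgr5 comparison at -1.52 ± 0.24 (adjusted p = 0.000145 in edgeR). Their part in the collagen values was not tested. Over the classes, 9 of 11 fibrillar members had a Tspan8 difference above 0 (median 0.13), against 5 of 19 basement membrane (median -0.18) and 7 of 22 other members (median -0.17), where 49.6% of all genes were above 0. The 19 count both genes of each type IV pair.

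Among the smallest H3K4me3 p-values in the interaction were those of Col18a1, the source of endostatin, at -0.74 ± 0.28 and Col14a1 at -0.68 ± 0.29, each with an adjusted p of 1.0 in edgeR. Col18a1 had 73.7 and 76.3 CPM in Lgr5+Tspan8hi against 76.8 and 78.9 CPM in Lgr5+Tspan8- libraries, and 107 and 86.1 CPM in Lgr5-Tspan8hi against 53.1 and 64.6 CPM in Lgr5-Tspan8- libraries. At Col18a1 the 2 Lgr5+ populations and the 2 Lgr5- populations differed in opposite directions. Col14a1 had 51.3 and 73.2 CPM in Lgr5+Tspan8hi against 77.6 and 96.5 CPM in Lgr5+Tspan8- libraries, and 117 and 79.9 CPM in Lgr5-Tspan8hi against 75.03 and 91.7 CPM in Lgr5-Tspan8- libraries.

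None of the most marked genes of each class or of the chains of basal cell attachment passed for H3K4me3. Col4a1 had 153, 129.9, 161 and 132 CPM in Tspan8hi libraries, against 149.7, 150.4, 193 and 189 CPM in Tspan8- libraries, a difference of -0.24 ± 0.11 (adjusted p = 0.804 in edgeR). Col4a2, on the same promoter, had 154, 125, 165 and 133 CPM in Tspan8hi libraries against 152, 148, 188 and 194 CPM in Tspan8- libraries. The highest values of both genes were the 2 Lgr5-Tspan8- libraries, and the groups overlapped. Lama3 had 64.4, 39.1, 69.3 and 61.6 CPM in Tspan8hi libraries against 46.9, 55.3, 57.7 and 58.3 CPM in Tspan8- libraries, and Lamb3 had 50.4, 51.8, 64.3 and 54.96 CPM against 61.0, 62.7, 51.4 and 65.0 CPM in Tspan8- libraries. Both differed by less than their SE, 0.09 ± 0.17 and -0.13 ± 0.16. In laminin-511, Lama5 had 133, 124, 114 and 93.5 CPM in Tspan8hi libraries against 121, 91.7, 116 and 98.1 CPM in Tspan8- libraries, and Lamc1 had 128, 117, 85.1 and 114 CPM against 147, 128, 138 and 110.0 CPM in Tspan8- libraries. Lamb1 had 76.3, 84.0, 84.2 and 78.0 CPM in Tspan8hi libraries against 79.7, 95.1, 67.5 and 82.1 CPM in Tspan8- libraries. In all 3 the groups overlapped. Col17a1 had 67.0, 73.8, 88.3 and 70.9 CPM in Tspan8hi libraries against 70.3, 49.9, 57.1 and 65.6 CPM in Tspan8- libraries, a difference of 0.28 ± 0.15. Col7a1 had 37.7, 40.6, 35.8 and 47.2 CPM in Tspan8hi libraries against 44.4, 58.7, 49.1 and 52.3 CPM in Tspan8- libraries, a difference of -0.34 ± 0.18. Neither passed, and in each the groups overlapped.

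Of the fibrillar collagens, Col1a1 had 33.1, 41.2, 32.6 and 26.9 CPM of H3K4me3 in Tspan8hi libraries against 24.9, 22.9, 31.2 and 34.0 CPM in Tspan8- libraries, and Col1a2 had 30.5, 26.1, 18.1 and 23.8 CPM against 17.7, 26.3, 21.4 and 19.8 CPM in Tspan8- libraries. Their differences of 0.24 ± 0.23 and 0.21 ± 0.26 were within the spread of the libraries. Col5a2 had 64.8, 64.8, 79.7 and 70.9 CPM in Tspan8hi libraries against 81.5, 101, 80.8 and 58.3 CPM in Tspan8- libraries, with overlap. Col11a1 had 65.3, 65.7, 65.7 and 66.8 CPM in Lgr5+ libraries against 94.2, 75.2, 79.1 and 76.5 CPM in Lgr5- libraries, without overlap, but its Lgr5 difference of -0.30 ± 0.14 did not pass (adjusted p = 0.971 in edgeR). Col12a1 had 89.4, 102, 80.6 and 125 CPM in Tspan8hi libraries against 89.5, 97.8, 80.2 and 76.0 CPM in Tspan8- libraries. At the low end Lama2 stayed between 1.95 and 6.46 CPM and Col20a1 between 0.453 and 2.89 CPM over the 8 libraries, levels at which single libraries hold few reads.

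**Figure D3:**
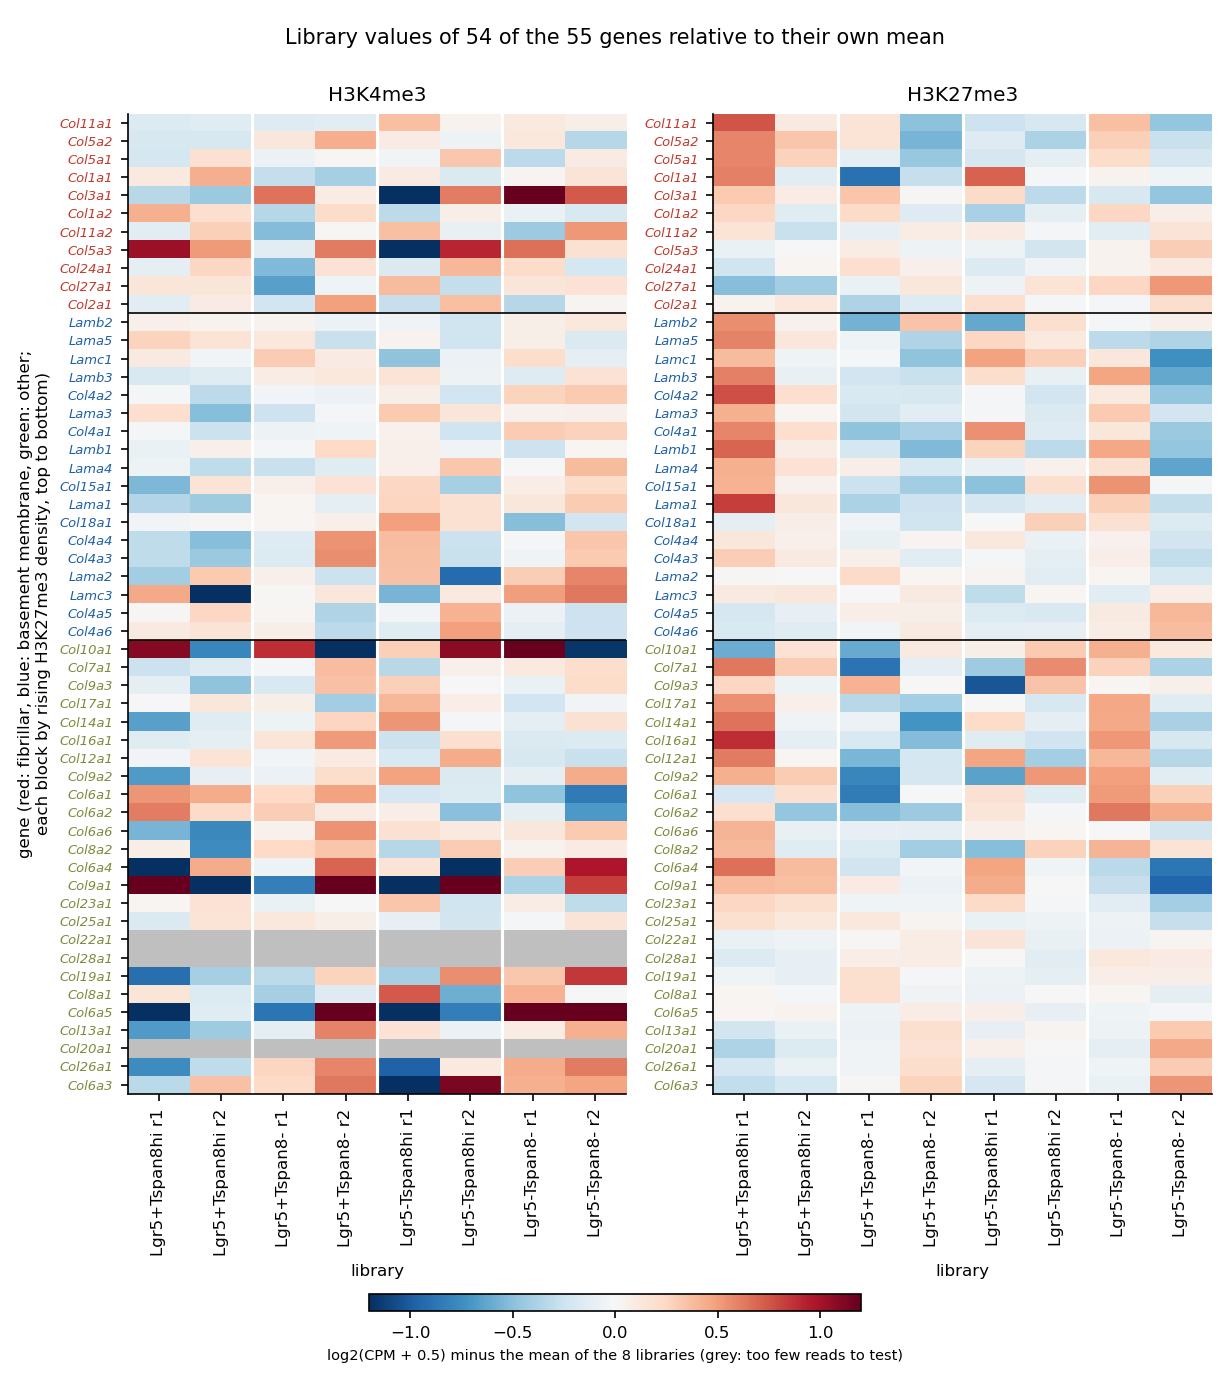
Rows are 54 of the 55 genes in their 3 classes, each class by rising H3K27me3 density from top to bottom, and columns the 8 libraries of each mark, from Lgr5+Tspan8hi at the left to Lgr5-Tspan8- at the right; colour is log2(CPM + 0.5) minus the gene's mean over the 8 libraries, limited to 1.2 either way, and grey marks 3 genes with too few reads to test. For H3K27me3 most genes at the top of the basement membrane and other classes are high in Lgr5+Tspan8hi replicate 1 and low in both Lgr5+Tspan8- libraries. Col10a1 and Col9a3, near the top of the other class, do not share this column pattern. The top fibrillar genes, Col11a1 and Col5a2, are high in Lgr5+Tspan8hi replicate 1 but above their mean in Lgr5+Tspan8- replicate 1.

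H3K27me3 differed at 1 member in the Tspan8 comparison. Col6a4, an alternative chain of type VI collagen, had 157, 128, 137 and 95.5 CPM in the Tspan8hi libraries, against 83.6, 96.8, 78.6 and 53.9 CPM in the Tspan8- libraries. The highest Tspan8- library lay just above the lowest Tspan8hi library. H3K27me3 over Col6a4 rose by 0.73 ± 0.13 in Tspan8hi cells, a 1.66-fold higher level (adjusted p = 0.0087 in edgeR), and it was the only one of 55 members to pass, where 0.335% of all 22099 genes did, 0.095% in the higher direction. Its H3K4me3 was low throughout, between 2.12 and 12.3 CPM. In the Lgr5 comparison Col6a4 differed by 0.38 ± 0.13 and did not pass (adjusted p = 0.48 in edgeR). The Tspan8 call was lost when either Lgr5+Tspan8- library, Lgr5+Tspan8hi replicate 1 or Lgr5-Tspan8hi replicate 1 was left out, with adjusted p up to 0.142. At an unadjusted p under 0.05 there were 18 members, 11 of them higher, against 12.9% of all genes.

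The neighbours of Col6a4 in the same cluster did not pass. Col6a5, which starts 134365 bp away on the same strand, had 204, 206, 212 and 187 CPM in Tspan8hi libraries against 192, 213, 194 and 198 CPM in Tspan8- libraries, a difference of 0.02 ± 0.09. Col6a6, at 268582 bp, had 134, 95.3, 106 and 103 CPM in Tspan8hi libraries against 94.6, 93.9, 102 and 87.0 CPM in Tspan8- libraries, a difference of 0.22 ± 0.12 (adjusted p = 0.45 in edgeR). The difference between these genes was not tested. Col6a4 and Col6a6 had H3K27me3 densities of 0.975 and 0.735 CPM per kb, and Col6a5 1.89 CPM per kb.

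Col27a1, a fibrillar collagen of cartilage, passed in the any-difference comparison. Its H3K27me3 was 171 and 182 CPM in Lgr5+Tspan8hi, 230.5 and 267 CPM for the Lgr5+Tspan8- libraries, 233 and 273 CPM for Lgr5-Tspan8hi, and finally 289 and 348 CPM for Lgr5-Tspan8-. Both Lgr5+Tspan8hi libraries were below, and both Lgr5-Tspan8- libraries above, all others. Col27a1 and Col6a4 were the 2 of 55 members that passed this comparison, with adjusted p of 0.0126 and 0.0133 in edgeR, where 0.529% of all genes passed. In the single comparisons Col27a1 did not pass: the Tspan8 difference was -0.41 ± 0.1 (adjusted p = 0.0557 in edgeR), the Lgr5 difference -0.44 ± 0.1 (adjusted p = 0.0835 in edgeR) and the interaction -0.17. No member passed the Lgr5 comparison in edgeR, where 0.0407% of genes did, 0.0136% in the higher direction, and 6 had an unadjusted p under 0.05, against 7.19% of all genes. DESeq2 and limma-voom called Col27a1 there, among 71 and 53 genes, and in the Tspan8 comparison too. Without Lgr5-Tspan8- replicate 1 edgeR called Col27a1, Col6a4 and Col9a1 among 165 genes in the Lgr5 comparison. The any-difference call was lost for Col27a1 without either Lgr5+Tspan8hi library and for Col6a4 without Lgr5+Tspan8hi replicate 1 or Lgr5+Tspan8- replicate 1, and without Lgr5-Tspan8- replicate 1 edgeR called 16 members and 979 of 23567 genes, against 117 genes with all libraries. Its H3K4me3 was 76.7 and 76.6, 44.0 and 66.8, 90.6 and 56.9, and 76.8 and 78.5 CPM in the same order of populations, with no order like that of H3K27me3.

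**Figure D4:**
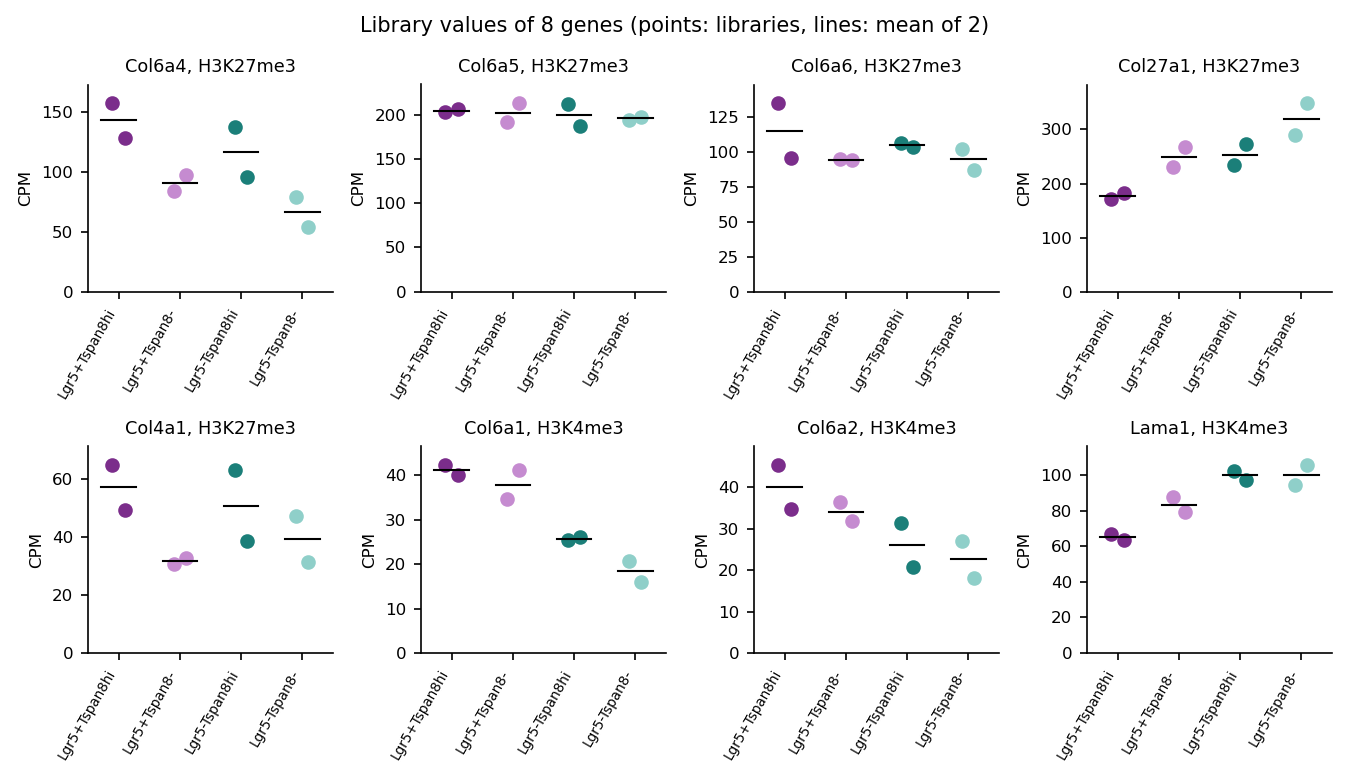
Library values in CPM (y axes, starting at 0) of 8 gene and mark pairs in the 4 populations (x axes); points are the 2 libraries of a population and lines their mean. H3K27me3 at Col6a4 is higher in the Tspan8hi populations while Col6a5 stays between 187 and 213 CPM, H3K27me3 at Col27a1 is lowest in Lgr5+Tspan8hi and highest in Lgr5-Tspan8- libraries, and H3K4me3 at Col6a1 is higher in all Lgr5+ libraries.

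Other members came close to the threshold in the Tspan8 comparison without passing. Col9a1, a fibril-associated cartilage collagen, had 97.1, 95.7, 102 and 74.7 CPM of H3K27me3 in Tspan8hi libraries against 80.0, 70.9, 61.5 and 38.3 CPM in Tspan8- libraries, a difference of 0.59 ± 0.14 (adjusted p = 0.0562 in edgeR). Col4a1 had 65.0, 49.5, 63.1 and 38.7 CPM in Tspan8hi libraries against 30.7, 32.9, 47.3 and 31.4 CPM in Tspan8- libraries, a difference of 0.60 ± 0.16 (adjusted p = 0.1 in edgeR). Col4a5 and Col4a6 went the other way without overlap. Col4a5 had 465, 499, 476 and 472 CPM in Tspan8hi libraries against 565, 561, 577 and 704 CPM in Tspan8- libraries, a difference of -0.33 ± 0.08 (adjusted p = 0.0785 in edgeR), and Col4a6 had 800.4, 820.1, 834 and 849 CPM against 887, 981, 967 and 1177 CPM in Tspan8- libraries, a difference of -0.28 ± 0.08. For H3K4me3 both stood on the other side of 0, at 0.33 ± 0.14 and 0.31 ± 0.14, and did not pass either. The X chromosome as a whole lay on the same side: 1021 X-linked genes had a median Tspan8 difference of -0.27, against 0.04 for 19922 autosomal genes, and the part of this shift in the Col4a5 and Col4a6 values was not tested. DESeq2 called 8 members in the Tspan8 comparison and limma-voom 7. Both sets held Col6a4, Col9a1, Col4a1 and Col23a1 in the higher direction and Col27a1, Col4a5 and Col4a6 in the lower, and DESeq2 added Col6a3, in the lower direction. Over all 22099 genes DESeq2 called 476 and limma-voom 340, against 74 in edgeR. Leaving out Lgr5-Tspan8- replicate 1 raised the count in edgeR to 15 members and to 1240 of 23567 genes, and leaving out Lgr5-Tspan8hi replicate 2 raised it to 5 members and 592 of 23268 genes.

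The members with little H3K27me3 shared an order over the libraries in which the 2 libraries of a population often stood apart. At 19 members the density was under 0.5 CPM per kb, a limit chosen after the values were seen. Col12a1 lay just inside it with 0.488 and Col15a1 just outside with 0.504 CPM per kb. They include 8 laminin chains, Col4a1 and Col4a2, Col17a1 and Col7a1. Their median log2 ratio to each gene's own mean was 0.55 and 0.02 in the Lgr5+Tspan8hi libraries, -0.26 and -0.40 for Lgr5+Tspan8-, -0.04 and -0.17 for Lgr5-Tspan8hi, and finally 0.30 and -0.40 for Lgr5-Tspan8-. In 16 of the 19 genes the highest library was Lgr5+Tspan8hi replicate 1, a count that was not made over all genes. Of the other 36 members this library was highest in 9 and lowest in 9. All 9208 genes under the same limit had medians between -0.11 and 0.05 in every library. TMM scaling tends to keep the median of so large a set near 0. These medians therefore cannot show whether parts of the set share the pattern. The 3253 of these genes longer than 40 kb lay between -0.13 and 0.07. The other 36 members lay between -0.07 and 0.06.

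The basal and myoepithelial markers, such as the keratins Krt5 and Krt14 and smooth muscle actin Acta2, had a like order. None of the 15 is a collagen or laminin gene, and their H3K27me3 densities lay between 0.253 and 0.622 CPM per kb. Their medians in the same order were 0.49 and -0.02, -0.44 and -0.60, 0.08 and -0.23, and 0.22 and -0.27. For 17 other basement membrane genes, such as the nidogens and perlecan, they were 0.32 and -0.01, -0.14 and -0.24, 0.06 and -0.03, and 0.11 and -0.07. Other matrix genes showed this less or not at all. The 21 genes of collagen synthesis lay between -0.18 and 0.13, with -0.04 in Lgr5+Tspan8hi replicate 1 and the highest value in replicate 2. The 16 matrix receptor genes lay between -0.28 and 0.10, the highest in Lgr5+Tspan8hi replicate 1. The 15 luminal markers lay between -0.09 and 0.18, with their highest value in the same Lgr5+Tspan8hi library, and the 10 endothelial markers between -0.11 and 0.03. The 12 fibroblast markers lay between -0.21 and 0.18, highest in Lgr5-Tspan8- replicate 1. The 10 immune markers lay between -0.14 and 0.21 and the 6 pericyte markers between -0.21 and 0.25, both highest in Lgr5-Tspan8- replicate 2 and below 0 in both Lgr5+Tspan8hi libraries. The part of single libraries in this pattern was not tested.

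**Figure D5:**
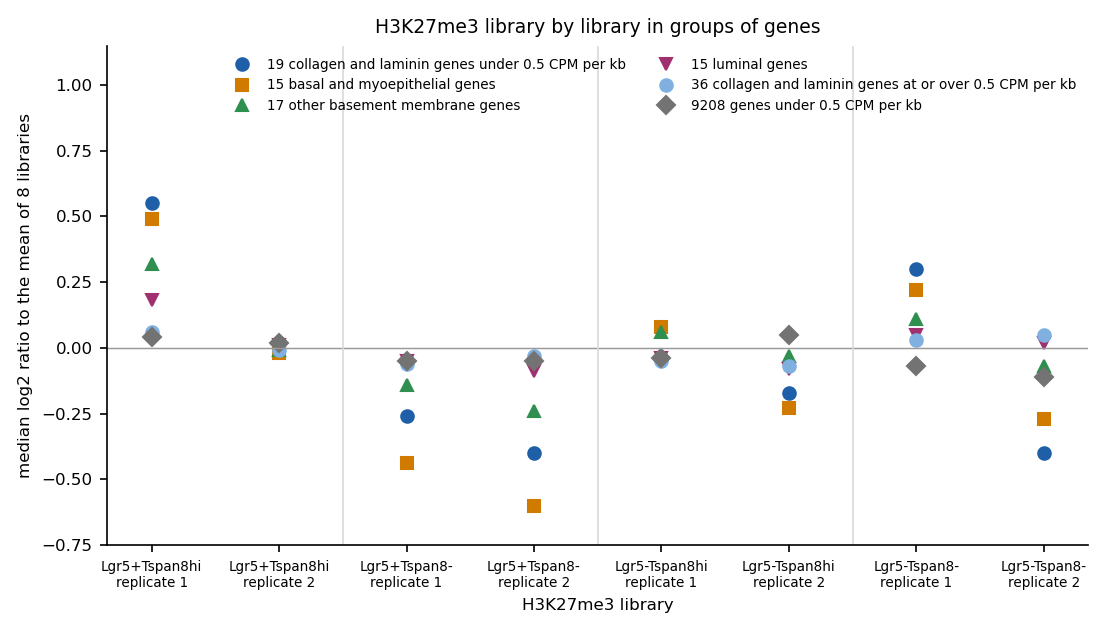
Median log2 ratio of H3K27me3 to the mean of 8 libraries (y axis) in each H3K27me3 library (x axis) for 6 groups of genes. The 19 collagen and laminin genes under 0.5 CPM per kb and the 15 basal and myoepithelial genes are high in Lgr5+Tspan8hi replicate 1 (0.55 and 0.49) and low in both Lgr5+Tspan8- libraries, while 9208 genes under the same limit stay between -0.11 and 0.05.

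This pattern bears on the interaction, where the 2 libraries of a population did not always stand together. The interaction was above 0 at 18 of these 19 genes, with a median of 0.68. Over the 9208 genes under the limit it was above 0 at 47.5%, with a median of -0.04. It was above 0 at 17 of the other 36 members and at 51.9% of all genes at or over the limit. Being computed from the same library values, the interaction of the 19 genes restates their pattern and adds no further result. None of the 55 members passed in edgeR, where 0.00905% of genes did, and 13 had an unadjusted p under 0.05, all above 0, against 5.5% of all genes in either direction. DESeq2 and limma-voom called none either, with 9 and 11 members at an unadjusted p under 0.05, against 856 and 1202 of 22099 genes. Lamb3 and Lama3 had interactions of 0.52 and 0.57. Lama1 had 109 and 67.2 CPM in Lgr5+Tspan8hi, 46.9 and 51.2 CPM for Lgr5+Tspan8-, 53.0 and 55.9 CPM for Lgr5-Tspan8hi, and finally 74.7 and 50.2 CPM for Lgr5-Tspan8-, an interaction of 1.03 ± 0.3. Col5a1 had 132 and 107, 81.6 and 64.0, 76.3 and 81.8, and 103 and 76.4 CPM in the same order, an interaction of 0.89 ± 0.25. Lama1 and Col5a1 were among the members that passed without Lgr5-Tspan8- replicate 2, where 65 of 23399 genes did, and Col15a1 among those that passed without Lgr5-Tspan8hi replicate 2, where 109 of 23268 genes did.

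The chains of the mammary basement membrane and the major stromal collagens did not pass for H3K27me3. Lama3 had 125, 94.4, 92.1 and 82.3 CPM in Tspan8hi libraries against 80.0, 85.1, 116 and 79.1 CPM in Tspan8- libraries, a difference of 0.13 ± 0.13. Lamb3 had 22.4, 13.6, 16.9 and 13.6 CPM in Tspan8hi libraries against 12.3, 11.99, 20.3 and 9.28 CPM in Tspan8- libraries, a difference of 0.31 ± 0.24. In both the highest library was Lgr5+Tspan8hi replicate 1 and the groups overlapped. Lama5 had 17.4, 12.5, 13.5 and 12.3 CPM in Tspan8hi libraries against 10.9, 8.7, 8.99 and 8.68 CPM in Tspan8- libraries. Here the groups did not overlap, but the difference of 0.58 ± 0.23 did not pass (adjusted p = 0.267 in edgeR). Its partner Lamc1 had 41.8, 30.9, 45.1 and 39.3 CPM in Tspan8hi libraries against 31.5, 22.8, 35.3 and 19.02 CPM in Tspan8- libraries, a difference of 0.54 ± 0.18, and Lamb1 had 41.8, 27.2, 30.8 and 20.5 CPM against 22.0, 17.6, 35.5 and 18.4 CPM in Tspan8- libraries, a difference of 0.36 ± 0.21. Both overlapped, and neither passed (adjusted p = 0.189 and 0.493 in edgeR). Lamb2 held only 0.752 to 2.32 CPM in any library. Col4a2 had 85.2, 57.1, 49.2 and 42.4 CPM in Tspan8hi libraries against 43.8, 43.5, 54.2 and 35.9 CPM in Tspan8- libraries, a difference of 0.37 ± 0.15 (adjusted p = 0.296 in edgeR). Col17a1 had 24.5, 17.3, 16.5 and 14.5 CPM in Tspan8hi libraries against 13.1, 12.4, 23.1 and 14.97 CPM in Tspan8- libraries, and Col7a1 had 12.3, 9.68, 5.64 and 11.7 CPM against 3.96, 7.15, 9.45 and 5.84 CPM in Tspan8- libraries. Their differences were 0.21 ± 0.2 and 0.63 ± 0.29, with overlap in both.

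Of the stromal chains, Col1a1 had 21.1, 12.5, 22.5 and 13.6 CPM of H3K27me3 in Tspan8hi libraries against 7.13, 11.2, 14.1 and 13.2 CPM in Tspan8- libraries, a difference of 0.62 ± 0.24 (adjusted p = 0.251 in edgeR). Col1a2, the second chain of type I collagen, had 43.6, 33.1, 27.8 and 33.9 CPM in Tspan8hi libraries against 43.0, 32.9, 43.8 and 38.8 CPM in Tspan8- libraries, a difference of -0.19 ± 0.15. Col3a1 had 43.6, 37.2, 41.0 and 28.04 CPM in Tspan8hi libraries against 44.2, 35.2, 30.4 and 25.2 CPM in Tspan8- libraries, a difference of 0.16 ± 0.16. The groups overlapped in all 3. Among the most densely marked genes, Col2a1 had 69.0, 73.3, 77.4 and 66.1 CPM in Tspan8hi libraries against 51.7, 60.3, 65.9 and 77.9 CPM in Tspan8- libraries, with overlap. Col6a3 had 250.1, 264, 267 and 304 CPM in Tspan8hi libraries against 309, 368, 290.2 and 442 CPM in Tspan8- libraries, a difference of -0.38 ± 0.11 (adjusted p = 0.116 in edgeR), with 1 library of overlap. Col26a1 had 350.3, 385, 375 and 400.2 CPM in Tspan8hi libraries against 394, 469, 391 and 502 CPM in Tspan8- libraries, a difference of -0.22 ± 0.09. Col11a1, the most thinly marked fibrillar gene, had 126, 80.2, 62.8 and 65.3 CPM in Tspan8hi libraries against 83.2, 53.0, 96.1 and 54.1 CPM in Tspan8- libraries. Col10a1 held 0.99 to 2.54 CPM in any library. Over the classes, the Tspan8 difference was above 0 at 15 of 19 basement membrane genes (median 0.18), 6 of 11 fibrillar (median 0.16) and 13 of 25 other members (median 0.02), against 52.7% of all genes.

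Genes that make, bind or anchor collagens and laminins were set beside them in 3 lists of 54 genes: 21 for collagen synthesis and processing, 17 for the other parts of basement membranes and 16 for receptors. None of the 51 tested passed for H3K4me3 in any of the 4 comparisons in edgeR, DESeq2 or limma-voom. In edgeR 3, 1, 2 and 0 had an unadjusted p under 0.05 in the Tspan8, Lgr5, interaction and any-difference comparisons. The shares over all genes were 5.9%, 4.98%, 4.2% and 5.27%. For H3K27me3, Itga1, the alpha subunit of a collagen-binding integrin, passed in the Tspan8 comparison, higher in Tspan8hi cells by 0.72 ± 0.13 (adjusted p = 0.00768 in edgeR), and in the any-difference comparison (adjusted p = 0.0178 in edgeR). Smoc2, a calcium-binding basement membrane protein, passed in the any-difference comparison (adjusted p = 0.0271 in edgeR), with differences of -0.40 ± 0.09 for Tspan8 and -0.34 ± 0.09 for Lgr5. No gene of the lists passed in the Lgr5 or interaction comparison in edgeR. Of the 54 genes tested for H3K27me3, 9, 8, 8 and 18 had an unadjusted p under 0.05 in the Tspan8, Lgr5, interaction and any-difference comparisons, against 12.9%, 7.19%, 5.5% and 11.1% of all genes. DESeq2 called Adamts2, the procollagen N-proteinase, in the interaction. In the Tspan8 comparison DESeq2 and limma-voom each called Itga1, Smoc2 and Pcolce2, an enhancer of procollagen C-proteinase.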

How the data were processed

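Chromatin immunoprecipitation with sequencing of H3K4me3 and H3K27me3 was done on 2 libraries for each of 4 sorted populations. The deposited values are whole read counts per Entrez gene, made by the authors with featureCounts on mm10, per the submitters' processing notes. The window counted for each mark is not given in the sources used here. Of 24 samples, 8 input samples were not analysed here. Entrez identifiers were matched to symbols with the RefSeq gene table of GRCm38.p6, which named 25189 of 27080 genes and all 55 collagen and laminin genes. Members, classes and gene lists were chosen with earlier results of these data known.

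Each mark was fitted over its 8 libraries in edgeR 4.0.16 (R 4.3.3) with TMM scaling, filterByExpr (19009 genes kept for H3K4me3 and 22099 for H3K27me3), a robust quasi-likelihood fit with 1 mean per population (4 residual degrees of freedom) and Benjamini-Hochberg adjustment over all genes kept. CPM values use TMM-scaled totals. Common biological variation was 16% for H3K4me3 and 16.8% for H3K27me3. The script was tested on simulated data. The 2 libraries of a population differed by more than sampling noise (chi-square over its degrees of freedom was 2.9 to 5.43). DESeq2 1.42.0, limma-voom (limma 3.58.1), other scalings, other filters, a replicate block and leaving out each library were alternatives. Library values are given for members that passed, those with 1 of the 3 smallest p-values in the Tspan8, Lgr5 or interaction comparison of a mark, the 2 highest and the lowest of each class for each mark, and the chains of types I, III and XVII, Col4a1, Col4a2, Col7a1, Lama3, Lamb3 and the laminin-511 chains. The values of 1 further member are not reported here. Other members named were chosen after their values were seen. Of the matrix partner lists, genes that passed are named, and of genes that did not, only those another tool called. Library totals limit the precision of thinly covered genes, such as Lamb2 for H3K27me3.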

Additional observations from a re-analysis of the deposited data

How the results depend on the processing

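Among members that passed or had 1 of the 3 smallest p-values of a comparison, no difference changed sign in any alternative. Medians over all members did: the H3K4me3 interaction, -0.14 in edgeR, was 0.05 when Lgr5-Tspan8hi replicate 2 was left out and 0.0048 when Lgr5+Tspan8- replicate 2 was, and the H3K27me3 Lgr5 difference, 0.0083, was below 0 in 4 alternatives, down to -0.057 without Lgr5+Tspan8hi replicate 1. For H3K27me3 in the Tspan8 comparison, 1 member was called, against 8 with DESeq2, 7 with limma-voom, 2 with library totals alone, 3 with loess offsets, 6 with no filter on low counts, 3 with a mean of at least 5 CPM, 4 with offsets against reads per kb (chosen after seeing the data) and 0 to 15 when libraries were left out in turn. In the Lgr5 comparison, 0 were called, against 1 (Col27a1) with DESeq2, limma-voom, no filter or offsets against reads per kb, and 0 to 3 with libraries left out. For any difference, 2 were called, against 5 with DESeq2, 7 with limma-voom, 6 with no filter and 0 to 16 with libraries left out. In the interaction, 0 were called, and 0 to 3 with libraries left out. For H3K4me3 the counts were 0 to 1 (Tspan8) and 0 to 2 (any difference) with libraries left out, and 0 otherwise. Over all genes, 74 passed for H3K27me3 and Tspan8 in edgeR, 21 higher and 53 lower, against 36 and 28 with library totals alone, 49 and 33 with loess offsets, 91 and 385 with DESeq2 and 83 and 257 with limma-voom. In the Tspan8 comparison 312 of 26650 genes passed with no filter and 136 of 15689 with a mean of at least 5 CPM. With offsets against reads per kb 143 of 20946 did. In the Lgr5 comparison 9 genes passed in edgeR, 71 with DESeq2, 53 with limma-voom, 42 with no filter and 61 with these offsets. For any difference 117 genes passed in edgeR, against 385 with DESeq2, 399 with limma-voom and 341 with no filter. The cause of these shifts was not tested. Correlations of same-numbered libraries over all genes were -0.03 to 0.14, not over 0.1 in every pair, so the numbers were not taken to pair them, although the medians of the 19 thinly marked members and of the basal markers were higher in replicate 1 than in replicate 2 in all 4 populations for H3K27me3. With the replicate block, 10 members and 678 genes were called for Tspan8, 1 member and 80 genes for Lgr5 and 15 members and 670 genes for any difference in H3K27me3, against 74, 9 and 117 genes without it. Effective depth was lower in Tspan8hi libraries, which limits what the thinly covered members can show.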
